A study of Mus musculus with 8 samples.

Results

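The genes of the voltage-gated sodium and calcium channels were examined, 32 of the 32285 genes in the count files. They were chosen by symbol alone: 10 sodium channel alpha subunits (Scn symbols ending in a), 4 sodium channel beta subunits (Scn symbols ending in b), 10 calcium channel alpha1 subunits (Cacna1a to Cacna1i and Cacna1s), 4 alpha2delta subunits (Cacna2d1 to Cacna2d4) and 4 calcium channel beta subunits (Cacnb1 to Cacnb4). The counts came from single nuclei of the cerebral cortex of C57BL/6J mice at postnatal day 25, with the medial cortex taken away and 1 library per mouse. Of the 8 libraries, 4 were labelled wild type (WT) and 4 Chd8 heterozygous (Chd8het), and each genotype had 2 males and 2 females. In every group of a sex and genotype, replicate 1 carried a single index and replicate 2 dual indices. The labels describe litter- and sex-matched pairs but do not say which library belongs to which pair, and they do not give the Chd8 allele. The comparisons asked how the mix of channel genes differed between neuron and glial types, and whether it differed between WT and Chd8het.

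A sodium channel is built from 1 large alpha subunit, which forms the pore and senses voltage, and smaller beta subunits that alter its gating and placement. Sodium channels open at the start of an action potential. Calcium channels have a pore-forming alpha1 subunit, an extracellular alpha2delta subunit and a cytoplasmic beta subunit, and both of these help the channel reach the membrane and set how it opens. The alpha1 genes fall into the L-type CaV1 group (Cacna1c, Cacna1d, Cacna1f, Cacna1s), known for links to gene transcription, the CaV2 group (Cacna1a, Cacna1b, Cacna1e) that includes the channels of transmitter release, and the low-voltage-activated T-type CaV3 group (Cacna1g, Cacna1h, Cacna1i), known for burst firing. In muscle, Cacna1s and Scn4a serve contraction, and Scn10a and Scn11a are known from sensory neurons.

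After filtering, 78168 nuclei remained, 7509 to 11020 per library, from libraries of 69.5 to 98.1 M UMIs (M is the prefix mega, and UMIs are unique molecular identifiers, which count single RNA molecules). Library pairs shared between 20 and 38 cell barcodes, at most 0.4% of the smaller library. Of 55 clusters, 30 were named by fixed marker genes into 20 classes with 57481 nuclei, and 18 classes had enough nuclei in every library to be tested. A class name means resemblance to that type (Pvalb-like, Sst-like and so on) and is shortened below to the name of the marker list. The excitatory classes were L2/3, L4/5 and deep intratelencephalic (IT), L5 extratelencephalic (ET), L5/6 near-projecting (NP), L6 corticothalamic (CT) and L6b. The GABAergic classes were Pvalb and Sst, whose shared markers are those of the medial ganglionic eminence (MGE), and Vip and Lamp5, with shared markers of the caudal ganglionic eminence (CGE). Lamp5 held the MGE markers too, summed to 2890 to 3702 CPM against 2998 to 3619 in Pvalb and 122 to 241 in Vip, so the contrast of MGE with CGE classes below is one of Pvalb and Sst with Vip and Lamp5. In all 18 classes, none of the class's own markers was at 0. That is a weak check, since in L2/3 IT none of the 10 microglia markers was at 0 either. The L5 ET list summed to a median of 378 CPM in L5 ET, against 71.1 in L2/3 IT. The lists of L5/6 NP, deep IT and L6 CT summed to 432, 461 and 793 CPM in L5 ET. The channel genes were left out of the clustering, though genes that vary with them were not. Cluster 24, with 83.2% of its 886 nuclei from Chd8het male 2, and cluster 27, with 82.2% of its 550 nuclei from WT female 1, stood apart and stayed unnamed. Levels are given in CPM, counts per M UMIs of a class in a library, as mean ± SD over 8 libraries unless stated.

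Chd8 itself did not separate the genotypes. Over all nuclei it was at 79.0 ± 2.73 CPM in the 4 WT libraries (75.1 to 81.5) and at 80.2 ± 6.35 CPM in the 4 Chd8het libraries (75.8 to 89.6), a log2 difference of -0.01 (SE 0.07, adjusted p = 1, edgeR quasi-likelihood). Chd8 RNA thus gave no check of the genotype labels, and WT and Chd8het below mean libraries labelled so.

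RefSeq promoter sequences on GRCm38.p6, from 250 bases before a start to 50 after it, matched 24 of the 32 genes. Those of Scn9a, Cacna2d2, Cacna2d3 and Scn4b are shown as examples for genes whose levels differed between neuron classes in the contrasts described below. Capitals mark every match, on either strand, to the TATA box TATAAA, the GC box GGGCGG, the CCAAT box and the cAMP response element TGACGTCA.
Scn9a: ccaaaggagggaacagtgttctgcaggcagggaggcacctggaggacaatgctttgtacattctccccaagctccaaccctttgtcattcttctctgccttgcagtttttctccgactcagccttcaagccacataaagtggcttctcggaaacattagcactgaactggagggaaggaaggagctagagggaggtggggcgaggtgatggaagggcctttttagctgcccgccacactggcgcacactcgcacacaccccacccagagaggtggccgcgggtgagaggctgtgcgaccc
Cacna2d2: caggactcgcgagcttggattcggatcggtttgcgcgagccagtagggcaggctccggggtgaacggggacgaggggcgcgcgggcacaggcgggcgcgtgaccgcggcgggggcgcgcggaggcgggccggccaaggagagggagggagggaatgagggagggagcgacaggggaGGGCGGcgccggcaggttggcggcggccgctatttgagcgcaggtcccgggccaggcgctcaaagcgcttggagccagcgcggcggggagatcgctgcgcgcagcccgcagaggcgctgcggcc
Cacna2d3: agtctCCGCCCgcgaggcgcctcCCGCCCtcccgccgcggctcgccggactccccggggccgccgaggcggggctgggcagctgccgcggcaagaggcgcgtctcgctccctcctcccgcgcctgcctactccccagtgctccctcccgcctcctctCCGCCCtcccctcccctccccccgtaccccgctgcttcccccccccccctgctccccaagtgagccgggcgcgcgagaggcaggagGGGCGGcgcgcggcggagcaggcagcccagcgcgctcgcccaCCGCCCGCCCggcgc
Scn4b: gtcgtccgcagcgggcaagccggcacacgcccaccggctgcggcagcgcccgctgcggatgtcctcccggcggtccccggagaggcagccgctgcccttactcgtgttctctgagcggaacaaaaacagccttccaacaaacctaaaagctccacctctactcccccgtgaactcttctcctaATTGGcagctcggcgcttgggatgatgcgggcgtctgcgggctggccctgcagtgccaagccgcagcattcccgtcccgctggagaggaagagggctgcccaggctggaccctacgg
The Scn9a window lies at chr2:66634913-66635212 on the minus strand, Cacna2d2 at chr9:107399630-107399929 on the plus strand, Cacna2d3 at chr14:29721815-29722114 on the minus strand and Scn4b at chr9:45138374-45138673 on the plus strand. The Scn9a window had a GC content of 57.3% with 9 CpG and no motif match. That of Cacna2d2 was 75.7% with 43 CpG and 1 GC box. Cacna2d3 had a GC content of 81.3%, 41 CpG and 6 GC box matches, and Scn4b had 66.3%, 26 CpG and 1 match to the CCAAT box. In all 32851 promoters of the table the median GC content was 52.7% with 7 CpG, and in the 34 promoters of the channel genes 59.5% with 10. The GC box was found in 35.7% of all promoters and 41.2% of those of the channel genes, the CCAAT box in 37.4% and 23.5%, the TATA box in 13.6% and 5.88%, and the cAMP response element in 1.79% and 0%. A match describes these letters in this window only.

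The main brain sodium channel genes were Scn1a, Scn2a and Scn8a, each above 10 CPM in all 18 classes. Per kilobase of gene span, the level in L2/3 IT was 1.97 CPM for Scn1a, 2.63 for Scn2a, 1.99 for Scn8a and 1.17 for Scn3a, but 0.177 for Scn9a. Scn1a, whose channel is known as the leading one of fast-spiking interneurons, was highest in Pvalb at 591 ± 38.4 CPM (516.8, 599.6 and 625.7 as lowest, median and highest library). Lamp5 followed with 480.3 ± 64.3 CPM, L4/5 IT with 476 ± 142 and L5 ET with 471 ± 105, and these neighbours did not differ beyond their spread. L6b had the lowest neuronal level, 161 ± 29.6 CPM. Scn1a also moved with index type: over all nuclei it was at 333 to 416 CPM in single-indexed and 216 to 368 in dual-indexed libraries.

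Scn2a, the alpha subunit of early axons and of many excitatory cells, ran the other way. It was highest in L6 CT (444 ± 35.1 CPM) and L6b (436 ± 35.5) and lowest among neurons in Pvalb (252 ± 17.5, from 231.5 to 276). Scn8a, the subunit concentrated at the axon initial segment, was highest in L5 ET at 418 ± 44.8 CPM and lowest among neurons in Vip at 217 ± 10.8. As a share of all sodium alpha UMIs, Scn2a made up 13.4% in Pvalb and 23.5% to 38.6% in the other neuron classes. Scn1a made up 14.2% in L6b and 37.6% in Lamp5.

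Scn9a, on chromosome 2 at 66480080 to 66634962 (GRCm38, GENCODE M21) and best known from pain-sensing neurons, set Pvalb apart from every other class. Its level in Pvalb was 622 ± 90.0 CPM, with 447.5, 626.7 and 734.4 CPM as the lowest, median and highest of 8 libraries. L4/5 IT was next with 161 ± 68.8 CPM (54.3, 170.2 and 246.8), then Vip with 118 ± 19.1, Sst with 105 ± 20.1 and L5 ET with 83.5 ± 37.1. The lowest Pvalb library lay above the highest library of each of these 4 classes, which overlapped one another. Scn9a was at 27.5 ± 13.3 CPM in L2/3 IT and 7.35 ± 3.16 in L6b. It made up 32.9% of sodium alpha UMIs in Pvalb and 0.652% to 10.2% in the other classes.

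Scn9a was higher in Pvalb than in Sst by a log2 difference of 2.60 (SE 0.12, adjusted p = 1.88e-43, edgeR quasi-likelihood), in 8 of 8 libraries. It was lower in L2/3 IT than in L4/5 IT by -2.53 (SE 0.12, adjusted p = 2.69e-44), again with no overlap. In L4/5 IT it was at 162 to 228 CPM in single-indexed and at 54.3 to 246.8 in dual-indexed libraries. L5/6 NP held 55.0 ± 8.51 CPM against 17.1 ± 5.21 in L6 CT (log2 1.56, SE 0.19, adjusted p = 1.77e-12). In the annotation 3 other genes overlap Scn9a, and because the strandedness of the counting was not given in the sources used here, their reads cannot be told apart from it. Reads of close relatives among the alpha genes, of which Scn1a, Scn2a, Scn3a, Scn7a and Scn9a lie in a row on chromosome 2 between 65457118 and 66784914, could likewise have been split by the counting.

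**Figure D1:**
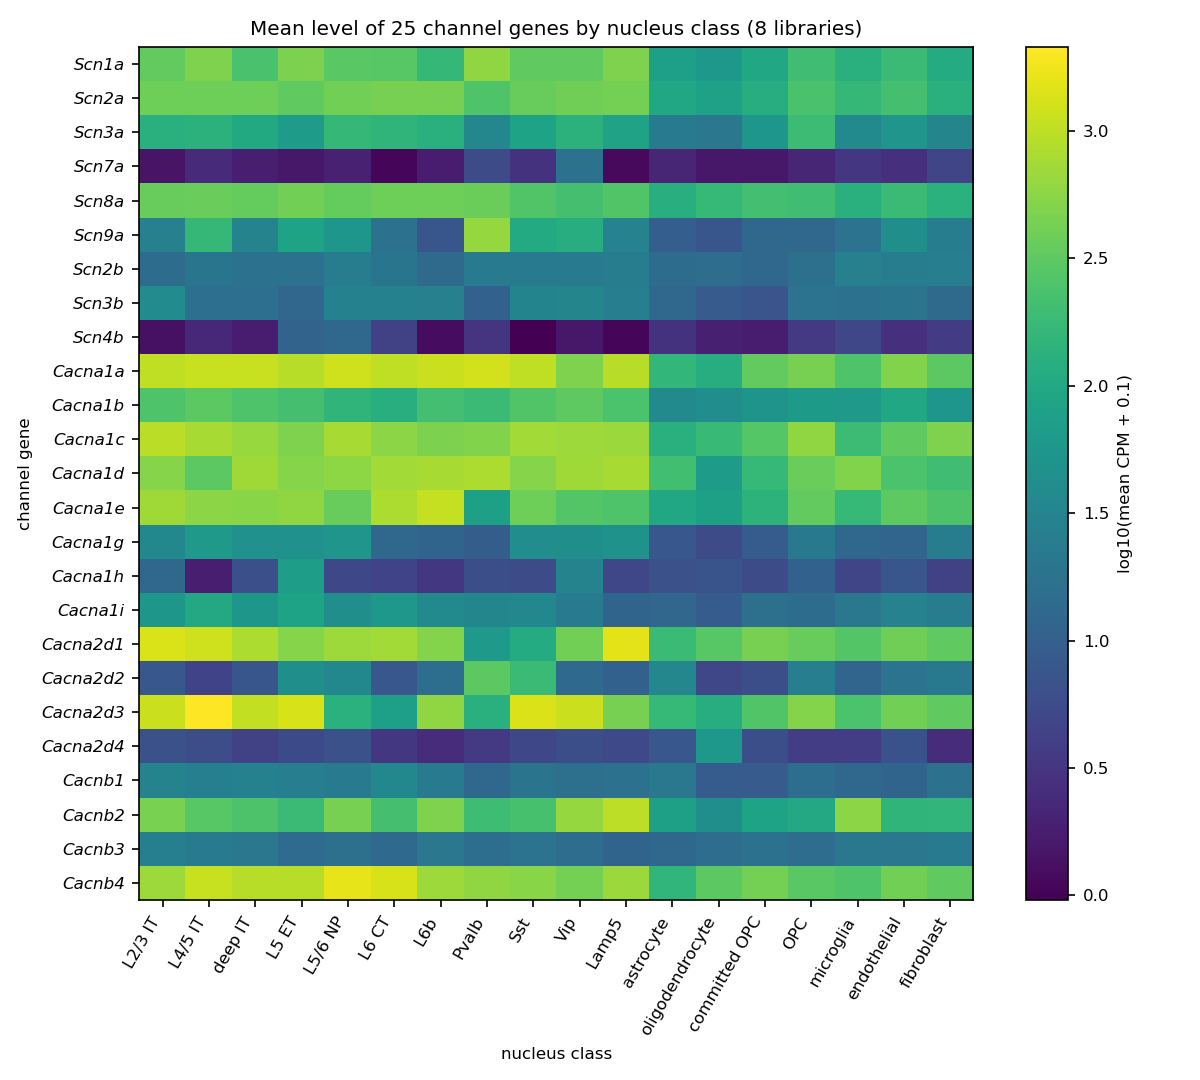
Mean level over 8 libraries of 25 channel genes that reached 10 CPM in some class (rows), by tested class (columns), coloured by log10 of the mean CPM plus 0.1. Among these classes Scn9a and Cacna2d2 are brightest in Pvalb, Scn3a in OPC and Cacna2d4 in oligodendrocytes.

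Scn3a, a sodium channel gene of the developing brain, was highest in oligodendrocyte precursors (OPC) at 187 ± 15.7 CPM (170.3, 178.8 and 207.6). L5/6 NP came next at 161 ± 12.9 CPM (146.1, 157 and 179.7), and these ranges overlapped. Its lowest neuronal level was in Pvalb, 34.1 ± 9.01 CPM against 83.1 ± 10.2 in Sst (log2 -1.28, SE 0.09, adjusted p = 6.67e-29, edgeR quasi-likelihood). It made up 1.83% of sodium alpha UMIs in Pvalb and 22.4% in OPC.

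Scn7a, a sodium-sensing relative of the alpha subunits, was above 10 CPM in Vip alone among the 18 classes. It was at 16.8 ± 5.70 CPM in Vip (9.72, 17.6 and 24.3) and 5.69 ± 2.26 in Pvalb.

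Of the sodium beta genes, which encode cell adhesion molecules as well as channel partners, Scn2b stayed between 12.9 and 27.1 CPM in all 18 classes. Scn3b was highest in L2/3 IT at 39.6 ± 11.7 CPM (20.1, 40.6 and 55.5) and lowest among neurons in Pvalb at 10.4 ± 3.35. It was lower in Pvalb than in Sst, which held 31.1 ± 4.07 CPM (log2 -1.56, SE 0.16, adjusted p = 9.54e-16, edgeR quasi-likelihood), and higher in L2/3 IT than in L4/5 IT (log2 1.38, SE 0.10, adjusted p = 5.07e-27), where the ranges overlapped.

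Scn4b, the beta subunit tied to fast repetitive firing, was low in the 18 tested classes and reached 10 CPM in 2 deep excitatory ones. L5/6 NP had 12.7 ± 6.28 CPM (5.89, 10.7 and 21.1) and L5 ET 11.0 ± 2.19 CPM (7.72, 10.5 and 13.8), and these did not differ beyond their spread. It was higher in L5 ET than in the upper IT classes, which averaged 1.76 ± 0.594 CPM (log2 2.65, SE 0.15, adjusted p = 2.77e-36, edgeR quasi-likelihood), and in L5/6 NP than in L6 CT (log2 1.46, SE 0.20, adjusted p = 7.56e-10). In Pvalb it was at 2.97 ± 0.921 CPM, above the 0.861 ± 0.343 of Sst (log2 1.70, SE 0.40, adjusted p = 0.000221). Both of these interneuron levels lie well under 10 CPM.

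Among the calcium alpha1 genes, Cacna1a, whose P/Q-type channel drives transmitter release, was high in all neurons but Vip. It was at 1241 ± 24.7 CPM in Pvalb (1214, 1237 and 1283) and 1235 ± 36.9 in L5/6 NP, and at 481 ± 24.6 in Vip (446.1, 479.6 and 512.8), below every library of the former classes. Cacna1b, the N-type channel of the same task, ran from 319 ± 21.9 CPM in Vip to 121 ± 18.4 in L6 CT, and L2/3 IT exceeded L6 CT by a log2 difference of 1.12 (SE 0.08, adjusted p = 7.77e-29, edgeR quasi-likelihood). The summed alpha1 level moved with index type. Over all nuclei it was at 2725 to 2943 CPM in single-indexed and 3242 to 3489 in dual-indexed libraries, without overlap.

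Cacna1e, the R-type channel gene, showed the widest spread of the CaV2 group among neurons. L6b held 1082 ± 202 CPM (854.6, 1061 and 1400) and Pvalb 76.5 ± 17.3 CPM (62.1, 72.3 and 117.1), with no other neuron class below 250 CPM. The highest Pvalb library was Chd8het male 2. Pvalb was lower than Sst, with 394 ± 48.8 CPM, by a log2 difference of -2.36 (SE 0.10, adjusted p = 1.92e-47, edgeR quasi-likelihood). The GABAergic classes together were lower than the excitatory ones by -1.68 (SE 0.05, adjusted p = 5.35e-72), and L5/6 NP was lower than L6 CT by -1.32 (SE 0.09, adjusted p = 9.22e-27).

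Of the L-type genes, Cacna1c was highest in L2/3 IT at 973 ± 225 CPM (714.5, 979.4 and 1289) and lowest among neurons in L6b at 465 ± 42.6 CPM. Cacna1d was highest in Pvalb at 831 ± 40.6 CPM and lowest among neurons in L4/5 IT at 306 ± 36.2. The CaV1 group made up between 33.4% (L6b) and 57.1% (microglia) of alpha1 UMIs, and CaV2 between 39.6% (microglia) and 65.2% (L6b). Cacna1f, an L-type gene of the retina, reached at most 9.71 CPM, in L6 CT. The other genes that stayed under 10 CPM in every class were Scn4a with 51 UMIs in all, Scn10a with 110, Cacna1s with 185 and Scn11a with 239.

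The T-type genes were a small part of the alpha1 UMIs, 1.41% to 6.63%, with the top share in L5 ET. They span 59.5 to 111.0 kb, against 159.3 to 609.2 kb for Cacna1a to Cacna1e, and these shares were not scaled to span. Cacna1h drew the sharpest line: 69.1 ± 18.7 CPM in L5 ET (47.0, 69.6 and 103.4) and 29.6 ± 4.84 in Vip, but 12.8 ± 6.04 in L2/3 IT and 1.71 ± 0.730 in L4/5 IT. No L5 ET library fell within the range of any other neuron class named here. The log2 difference between L5 ET and the upper IT classes was 3.82 (SE 0.12, adjusted p = 7.34e-64, edgeR quasi-likelihood), and that between L2/3 IT and L4/5 IT was 2.76 (SE 0.19, adjusted p = 5.21e-28). Cacna1g was highest in L4/5 IT at 62.0 ± 16.4 CPM and lowest in Pvalb among neurons at 9.34 ± 4.42. Pvalb was below Sst by a log2 difference of -2.16 (SE 0.15, adjusted p = 4.94e-28). Cacna1i was also highest in L4/5 IT, 99.1 ± 13.0 CPM, and lowest among neurons in Lamp5, 11.2 ± 4.77. It was lower in GABAergic than in excitatory classes (log2 -1.49, SE 0.06, adjusted p = 1.55e-49).

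The alpha2delta genes, the binding partners of gabapentin-type drugs in the case of Cacna2d1 and Cacna2d2, differed between neuron classes. Cacna2d2, on chromosome 9 at 107399612 to 107529343, was at 302 ± 16.6 CPM in Pvalb (284.5, 299.1 and 328) and 182 ± 29.2 CPM in Sst (151, 178 and 224.8). L5 ET held 43.9 ± 10.8 CPM, L5/6 NP 35.0 ± 5.88, Vip 13.2 ± 3.89, Lamp5 10.3 ± 2.45 and L4/5 IT 4.4 ± 1.17. The lowest Pvalb library was above the highest Sst library, and the lowest Sst library above all of the others listed. MGE exceeded CGE classes by a log2 difference of 4.34 (SE 0.10, adjusted p = 1.2e-81, edgeR quasi-likelihood), and L5 ET exceeded upper IT classes by 2.91 (SE 0.09, adjusted p = 8.63e-64).

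Cacna2d1 ran opposite to Cacna2d2 across interneurons. Its level was 1545 ± 116 CPM in Lamp5 (1289, 1568 and 1688), 413 ± 39.6 in Vip, 109 ± 43.8 in Sst and 62.4 ± 15.7 in Pvalb (47.6, 58.7 and 85.0). The MGE classes were lower than the CGE classes by a log2 difference of -3.29 (SE 0.09, adjusted p = 7.29e-73, edgeR quasi-likelihood). GABAergic classes were lower than excitatory ones by -1.74 (SE 0.05, adjusted p = 4.21e-66), an average over classes on the log scale that hides Lamp5, the highest of all. L2/3 IT held 1366 ± 217 CPM, and L5 ET, with 530 ± 80.7, was below the upper IT classes (log2 -1.3, SE 0.10, adjusted p = 3.22e-26).

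Cacna2d3, on chromosome 14 at 28904943 to 29721864, split both the interneurons and the deep layers. L4/5 IT had 2128 ± 255 CPM (1638, 2186 and 2407), Sst 1406 ± 116 (1246, 1388 and 1605), L5 ET 1341 ± 72.2, Vip 1163 and L2/3 IT 1157 ± 142. By contrast, Pvalb had 129 ± 31.8 CPM (93.7, 124.6 and 186.1), L5/6 NP 131 ± 50.4 and L6 CT 73.3 ± 10.5 (59.4, 71.9 and 90.1). The log2 difference was -3.45 between Pvalb and Sst (SE 0.12, adjusted p = 1.03e-55, edgeR quasi-likelihood) and 4.06 between L2/3 IT and L6 CT (SE 0.13, adjusted p = 6.79e-64), with no overlap in either. Cacna2d3 spans 816.9 kb, the longest span of the 32 genes, and 7 annotated genes overlap it.

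As shares of all alpha2delta UMIs, Cacna2d2 made up 61.0% in Pvalb and 10.7% in Sst. Cacna2d3 made up 82.6% in Sst, 72.9% in Vip and 69.9% in L5 ET. Cacna2d1 made up 89.5% in L6 CT, 80.3% in L5/6 NP and 77.3% in Lamp5, and 6.43% in Sst. The 4 GABAergic classes thus had 3 different leading alpha2delta genes by UMIs. The spans are 816.9 kb for Cacna2d3, 439.8 kb for Cacna2d1 and 129.7 kb for Cacna2d2. These shares were not scaled to span, so they do not rank the genes of a class by transcription.

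Of the calcium beta genes, Cacnb2 and Cacnb4 carried most counts. Cacnb4 was highest in L5/6 NP at 1623 ± 172 CPM (1457, 1606 and 2005) and L6 CT at 1324 ± 144, and lowest among neurons in Vip at 430.1 ± 45.5. Cacnb2 was highest in Lamp5 at 986 ± 27.1 CPM (944.8, 983.1 and 1030), followed by Vip at 626 ± 68.6, against 193 ± 15.6 in Pvalb and 226 ± 20.3 in Sst. The MGE classes were lower for Cacnb2 than the CGE classes by a log2 difference of -1.90 (SE 0.08, adjusted p = 3.84e-50, edgeR quasi-likelihood). Cacnb2 made up 58.8% of calcium beta UMIs in Lamp5 and 57.5% in Vip, and Cacnb4 83.2% in L6 CT. Cacnb1, the beta subunit known from muscle, and Cacnb3 stayed low, at most 34.6 CPM (L6 CT) and 26.7 CPM (L2/3 IT). Their spans are 21.5 and 13.7 kb, against 384.8 kb for Cacnb2 and 248.5 kb for Cacnb4. These levels and shares were not scaled to span, so they do not rank the 4 genes by transcription. In the annotation 15 genes overlap Cacnb2.

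**Figure D2:**
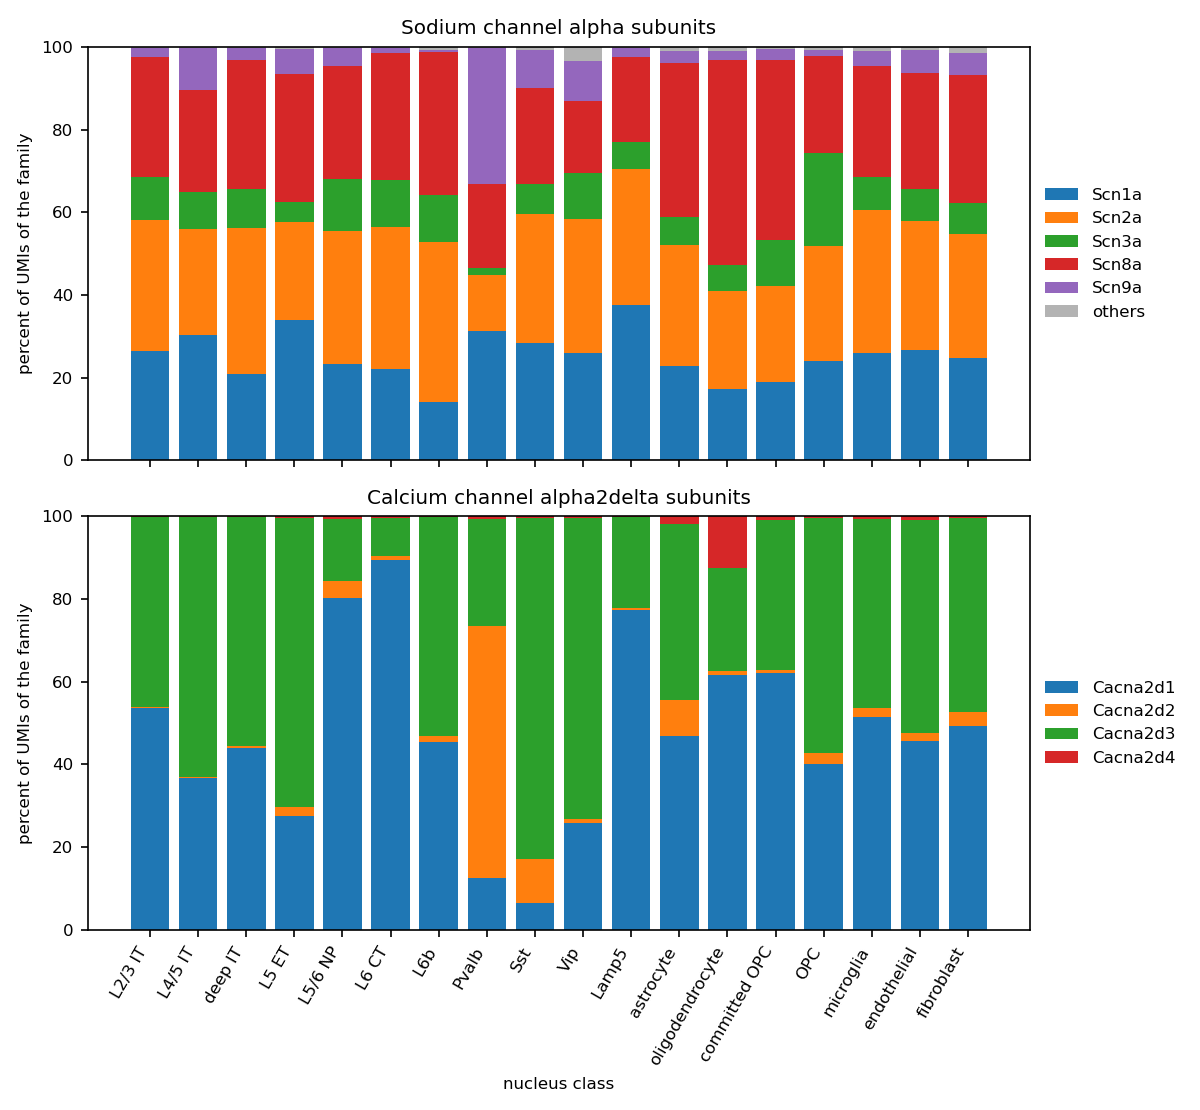
Mean share over 8 libraries (percent of the family's UMIs, y axis) of sodium alpha genes (upper panel, the rarer genes in grey) and alpha2delta genes (lower panel), stacked for each tested class (x axis). Scn9a reaches 32.9% of sodium alpha UMIs in Pvalb, and Cacna2d2 61.0% of alpha2delta UMIs in the same class. Shares are not scaled to gene span.

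**Figure D3:**
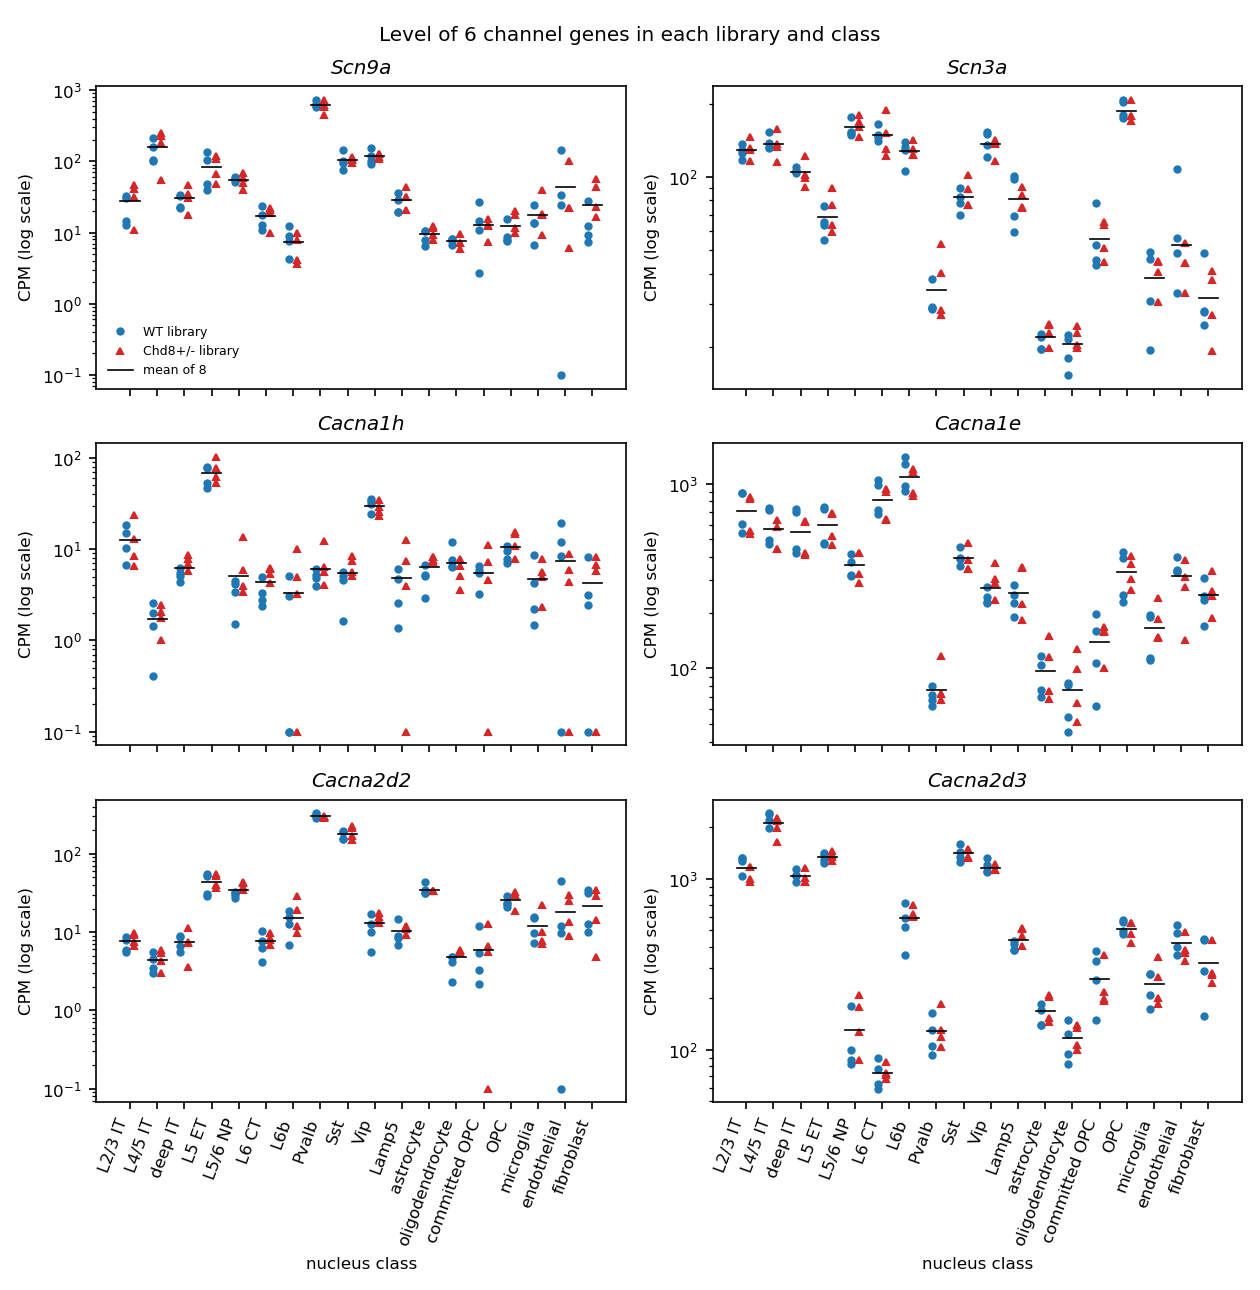
Level of 6 channel genes in each library (CPM on a log axis) by tested class, with WT libraries as circles, Chd8het libraries as triangles and the mean of 8 as a bar. Libraries at 0 are drawn at 0.1 CPM. The 8 Pvalb libraries lie above all other classes for Scn9a and Cacna2d2, and below the 8 Sst libraries for Cacna2d3. Circles and triangles overlap in all panels and classes except Cacna2d2 in L5/6 NP and oligodendrocytes and Cacna1h in astrocytes.

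For the tests between classes, 28 of the 32 genes passed the count filter among 15251 genes, and Scn4a, Scn10a, Scn11a and Cacna1s did not. A gene was called at an adjusted p under 0.05 (edgeR quasi-likelihood, Benjamini-Hochberg over all 15251 genes) with at least a 2-fold difference. In each contrast the share of all genes called is the background, and it includes genes that were used to form the clusters. GABAergic against excitatory classes gave 8 calls among the 28 genes (background 13.6%), 4 higher, with Cacna2d2, Scn9a and Scn7a among them, and 4 lower, which were Cacna2d1, Cacna1e, Cacna1i and Scn4b. Pvalb against Sst gave 8 (background 10.2%), 2 higher and 6 lower, and the MGE against the CGE classes also 8 (background 9.87%), 3 higher and 5 lower. In MGE against CGE, Cacna1i (log2 1.07) was no longer called without WT male 1, at 0.99, or with predicted doublets kept, at 0.79.

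L2/3 IT against L6 CT gave 9 calls (background 12.9%), of which 8 were higher in L2/3 IT and Scn4b was lower (log2 -1.61). The higher ones included Cacna2d3, Cacna1h (1.53), Cacna1g (1.48), Cacnb2 and Cacna1b. L2/3 IT against L4/5 IT gave 4 calls (background 7.92%), with Cacna1h and Scn3b among the 3 higher and Scn9a lower. L5 ET against upper IT gave 7 (background 12.5%): Cacna1h, Cacna2d2 and Scn4b were among the 4 higher, and Cacna2d1, Scn3b (-1.04) and Cacnb2 (-1.01) lower. In L5 ET against upper IT, Scn3b was no longer called without WT male 1 (-0.996) or Chd8het male 1 (-0.895), while Cacnb2 lost its call in 6 settings, with values from -1.0 to -0.98. These were the fits without Chd8het male 1 or Chd8het male 2, with DESeq2 or its size factors, with library size alone and with predicted doublets kept. L5/6 NP against L6 CT gave 7 (background 10.2%), with Cacna2d2 (log2 2.05), Cacna1g (1.91), Scn9a and Scn4b among the 5 higher and Cacna1f (-1.45) and Cacna1e lower. Neurons against glia gave 20 calls, all higher in neurons (background 28.6%). There, the largest log2 differences were 2.48 for Scn9a, 2.36 for Cacna1b, 2.33 for Cacna1a and 2.23 for Cacna1f. Over the 28 genes the median log2 difference was 1.48 in this contrast and between -0.15 and 0.17 in the 7 contrasts within neurons, and over all 15251 genes it was -0.07 and between -0.05 and 0.01.

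In glia, levels have to be set beside the RNA of excitatory neurons found in the same nuclei. The 5 shared excitatory markers, none of which was at 0, summed to 20.8% of their excitatory level in oligodendrocytes, 23.8% in OPC, 25.8% in committed OPC, 26.6% in astrocytes, 35.6% in fibroblasts, 46.0% in microglia and 56.6% in endothelial cells. Their part in the glial values was not tested. Measured on the same scale, Scn1a, Scn2a and Cacna1a in astrocytes stood at 23.0%, 24.2% and 14.4% of their excitatory mean, below the marker value. Other channel genes stood above it in astrocytes, such as Scn8a at 32.1%, Cacna1d at 35.4% and Cacnb1 at 76.6%. Scn2b and Cacnb3, with short spans of 12.3 and 13.7 kb, stood at 66.4% to 148% in every non-neuronal class.

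In OPC, Scn3a was at 150% of its excitatory mean, Cacna2d2 at 153%, Cacna1c at 88.4%, Scn1a at 64.4% and Scn2a at 59.2%, against 23.8% for the markers. OPC against oligodendrocytes gave 13 calls among the 28 genes (background 28%), 12 of them higher in OPC. Scn3a was at 187 ± 15.7 CPM in OPC and 20.6 ± 2.86 in oligodendrocytes (log2 3.03, SE 0.10, adjusted p = 1.29e-59, edgeR quasi-likelihood), with no overlap. The next were Cacna1f, at under 2 CPM in both, Cacna1d (log2 2.32), Cacna2d2 (2.27), Cacna2d3 (2.00) and Cacna1e (1.99). Astrocytes against OPC gave 10 calls (background 23%), 9 lower in astrocytes, with Scn3a (log2 -3.02), Cacna1c (-2.17), Cacna1e (-1.72), Cacna2d3 (-1.55) and Cacna1a (-1.44) at their head and Cacna2d4 (1.04) higher. In astrocyte against OPC, Cacna2d4 lost its call without any 1 of the 4 WT libraries, with library size alone or with predicted doublets kept, with values from 0.86 to 0.99. OPC against excitatory classes gave 12, all lower in OPC (background 28.8%), led by Cacna1i (log2 -2.26), Cacnb4 (-2.0), Cacna1b (-1.94), Cacnb2 (-1.89), Cacna1f (-1.83) and Scn9a (-1.78).

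Cacna2d4, an alpha2delta gene known from photoreceptors, marked oligodendrocytes at 57.5 ± 10.2 CPM (44.6, 58.9 and 70.8). All other tested classes had means of at most 7.70 CPM, and committed OPC had 5.99 ± 5.85. OPC were lower than oligodendrocytes by a log2 difference of -4.07 (SE 0.24, adjusted p = 6.12e-35, edgeR quasi-likelihood), without overlap. Lrtm2 overlaps Cacna2d4 on the opposite strand. Oligodendrocytes had Scn8a at 44.6% of its excitatory mean, against 57.1% in committed OPC, 53.1% in OPC and 32.1% in astrocytes. Scn8a made up 49.5% of the sodium alpha UMIs of oligodendrocytes. In astrocytes, Cacna2d2 was at 34.4 ± 3.83 CPM (31.4, 33.5 and 43.6), 204% of its excitatory mean, which was 17.3 CPM. On this scale it was at 153% in OPC, 126.5% in fibroblasts and 28.1% in oligodendrocytes. The shared GABAergic markers summed to a median of 40.5 CPM in astrocytes and 78.0 in OPC. The part of interneuron RNA in these Cacna2d2 values was not tested.

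Microglia held Cacnb2 at 552 ± 47.5 CPM (485.3, 539.6 and 634.8), 168% of its excitatory mean, and Cacna1d at 497 ± 58.8 CPM (84.1%). Their median nucleus had 1434 UMIs, against 5860 to 12510 in the neuron classes. Mural cells, too few to test, had Cacna1c at 197% ± 32.9 of the excitatory mean (lowest library 140%, highest 243%), against 55.2% for the markers.

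The 4 unnamed neuronal clusters with at least 1000 nuclei were described by number. Scn7a was highest there: 46.0 ± 11.1 CPM in cluster 17 (33.4, 45.1 and 62.2), led by BC006965, Col26a1 and Whrn, and 20.6 ± 3.32 CPM in cluster 6, led by Lemd1, Rmst and Hgf. These clusters held 31.9% and 26.6% of all Scn7a UMIs. Both held the shared excitatory markers, summed to 1039 to 1163 CPM in cluster 17 and 972 to 1233 in cluster 6. Their GABAergic markers summed to 6.5 to 11.6 and 9.8 to 14.8 CPM. Neither cluster entered the class contrasts, so the call of Scn7a as higher in GABAergic classes does not cover them. The lowest library of cluster 17 was above the highest of cluster 6 and of Vip.

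Of 38 listed genes whose products bind or traffic the channels or sit in the same complexes, 35 were found and 30 passed the filter of the class fit. They were called in 3 to 18 of 30 tests per contrast. GABAergic against excitatory classes gave 7 (background 13.6%), 6 of them higher, led by Fgf13, an intracellular sodium channel modulator, at 1205 ± 75.6 against 70.2 ± 15.3 CPM (log2 3.52) and Fgf11 (2.24). Pvalb against Sst gave 8 (background 10.2%), with 6 lower, led by Cacng5 (-3.98) and Stac (-2.68). MGE against CGE classes also gave 8 (background 9.87%), led by Gem (2.95), an inhibitor of calcium channels, and Cachd1 (-2.85). Gem rested on few counts, at 1.27 against 0.163 CPM with overlapping ranges, and Cachd1 was at 4.25 against 28.3 CPM. L2/3 IT gave 6 against L6 CT (background 12.9%), led by Fgf13 (2.44) and Stac2 (-2.18), and 6 against L4/5 IT (background 7.92%), all higher, led by Fgf13 (1.57) and Cacng4 (1.46). L5 ET against upper IT gave 10 (background 12.5%), led by Stac (4.25), which encodes a binding protein of L-type channels, and Gem (-3.09), the latter at 0.0236 against 0.622 CPM with overlapping ranges. L5/6 NP against L6 CT gave 3, a share near its background of 10.2%, with Cacng5 (4.14) and Stac2 (-1.54). OPC against oligodendrocytes gave 18 (background 28%), led by Cacng4, an AMPA receptor auxiliary subunit of the gamma family, at 714 against 4.11 CPM (log2 7.26), and Nfasc (-2.98). Astrocytes against OPC gave 17 (background 23%), led by Cacng4 (-4.33) and Gem (3.78, at 7.39 against 0.499 CPM). OPC against excitatory classes gave 14 (background 28.8%), led by Cacng4 (7.10) and Cachd1 (3.16), and neurons against glia 18 (background 28.6%), led by Cacng2 (2.48) and Rims1 (2.38).

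Genotype was tested within each class by edgeR quasi-likelihood in a model of sex and genotype, and every log2 value is Chd8het minus WT. Of 403 tests of channel genes over 18 classes, 0 were called at an adjusted p under 0.05 (background 0%). An unadjusted p under 0.05 was found in 9 of the 403, or 2.23%, beside 2.44% of all 190236 tests. Of the 9, 7 were higher and 2 lower in Chd8het, and this split was not stable: it was 4 and 5 without WT male 1, 3 and 3 without WT male 2, 5 and 5 without Chd8het male 2, and 3 and 3 in DESeq2. DESeq2 thus gave 6 such tests, 1.49%, beside 1.07% of all tests, and 0 calls among channel genes beside 8 among all tests (0.00421%). With the replicate block (same sex, same number), 35 of the 403 had an unadjusted p under 0.05, against 6.09% of all tests, and again 0 were called, while 55 of all 190236 (0.0289%) were. With index type added there were 29, against 5.62%, and 0 calls, while 34 of all 190236 tests (0.0179%) were called. Over all nuclei, 0 of 31 genes had an unadjusted p under 0.05 (background 1.41%). With the replicate block 5 of the 31 did, 4 of them lower, beside 1363 of all 21298 genes, and 0 were called. Without the block, 2 of 98 tests in the 4 numbered clusters had an unadjusted p under 0.05, beside 920 of all 46906 tests there, with 0 called. So did 9 of 450 tests of the partner genes in the 18 classes, beside 2.44% of all tests, again with 0 called. All 9 were higher. That direction did not hold with 1 library left out, with 4 higher and 5 lower without WT female 1. With no count filter, 1 partner test in a numbered cluster was called (adjusted p = 0.0495, edgeR quasi-likelihood), Stac in cluster 6, named after its value was seen, beside 80 of all 95404 tests of those clusters.

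The 9 tests were Cacna2d4 in oligodendrocytes, Scn7a and Cacna2d1 in Pvalb, Cacna1h in L6 CT, Scn1a and Cacna2d1 in microglia, Cacna2d1 in astrocytes, and Cacna1i and Cacna1d in fibroblasts. All but Cacna2d4 in oligodendrocytes and Scn7a in Pvalb were higher in Chd8het. Of the 9, Cacna2d1 in Pvalb and in microglia and Cacna1d in fibroblasts did not have the smallest p of their class and were chosen after their values were seen. The share of all genes with an unadjusted p under 0.05 was 3.13% in oligodendrocytes, 1.95% in Pvalb, 2.36% in L6 CT, 2.81% in microglia, 2.53% in astrocytes and 3.6% in fibroblasts.

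Cacna2d4 in oligodendrocytes, the alpha2delta gene that marked this class, had the smallest p of the 9. The WT libraries were at 65.6, 58.3, 70.8 and 67.1 CPM (male 1, male 2, female 1, female 2), and the Chd8het libraries, in the same order, at 46.9, 44.6, 47.0 and 59.5. One Chd8het library, female 2, lay above the lowest WT library, so the groups overlapped by that library alone. The log2 difference was -0.44 (SE 0.14, adjusted p = 1, edgeR quasi-likelihood). Of the 4 pairs alike in sex and replicate number, which need not be litter pairs, 0 were higher in Chd8het. Split by index type, the log2 difference was -0.54 (single) and -0.27 (dual).

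In Pvalb, Scn7a was at 9.96, 8.14, 4.998 and 6.04 CPM in WT and 4.43, 3.83, 3.51 and 4.59 in Chd8het, a complete separation at a level under 10 CPM (log2 -0.83, SE 0.27, adjusted p = 1, edgeR quasi-likelihood). Cacna2d1 in the same class was at 48.0, 47.6, 67.1 and 50.3 CPM in WT and 67.2, 83.5, 85.0 and 50.1 in Chd8het (log2 0.39, SE 0.17, adjusted p = 1, edgeR quasi-likelihood). In L6 CT, Cacna1h went from 3.37 ± 1.14 to 5.47 ± 0.882 CPM (n = 4 each, log2 0.68, SE 0.26, adjusted p = 1, edgeR quasi-likelihood), higher in 4 of 4 pairs. None of these passed the adjustment over the genes of its class. In each of the 18 classes, 0 to 2 of the channel genes tested separated the genotypes without overlap. Chance separates 4 against 4 values with a probability of 0.0286, and the share of all genes that separate was not counted. The separations named here and below are thus not read as genotype differences.

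For microglia, astrocytes and fibroblasts the values are given beside the excitatory markers of the same class. Scn1a in microglia was at 107.5, 89.0, 120.6 and 96.2 CPM in WT and 160.4, 95.1, 213.6 and 126 in Chd8het (log2 0.52, SE 0.21, adjusted p = 0.999, edgeR quasi-likelihood), with an adjusted p of 0.27 under the block and a log2 value of 0.32 without Chd8het female 1. The summed excitatory markers of microglia were at 393 to 528 CPM in WT and 428 to 593 in Chd8het. Cacna2d1 in astrocytes went from 165 ± 9.47 to 205 ± 24.8 CPM (n = 4 each, log2 0.29, SE 0.12, adjusted p = 1, edgeR quasi-likelihood), where the markers were at 234 to 276 CPM in WT and 260 to 341 in Chd8het. Cacna1i in fibroblasts was at 19.7, 18.7, 15.2 and 20.3 CPM in WT and 31.0, 30.9, 26.6 and 35.9 in Chd8het, without overlap (log2 0.74, SE 0.31, adjusted p = 1, edgeR quasi-likelihood). That value was 0.37 with predicted doublets kept and 1.22 with the stricter marker gate. Their markers were at 292 to 455 CPM in WT and 350 to 449 in Chd8het. The part of that RNA in these 3 values, and in Cacna2d1 in microglia and Cacna1d in fibroblasts, was not tested.

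In the remaining classes the gene with the smallest p did not reach an unadjusted 0.05, a level reached by 1.87% of all genes in committed OPC, 3.03% in OPC, 2.26% in endothelial cells, 3.22% in L5/6 NP, 3.18% in L5 ET and 2.97% in L6b. For deep IT this share was 1.67%, for L4/5 IT 1.61%, for L2/3 IT 1.64%, for Sst 2.27%, for Vip 2.33% and for Lamp5 2.6%. Cacna1a in L2/3 IT was at 1044, 1094, 1076 and 1093 CPM in WT and 960, 943, 1017 and 1004 in Chd8het (log2 -0.15, SE 0.07, adjusted p = 1, edgeR quasi-likelihood). These groups did not overlap. The same gene had the smallest p over all nuclei (log2 -0.12, SE 0.06), a sum that includes these L2/3 IT nuclei and is not a separate observation. Cacna2d2 in L5/6 NP was at 30.3 ± 2.36 CPM in WT and 39.6 ± 4.29 in Chd8het (n = 4 each, log2 0.33, SE 0.17), and Cacnb4 in L6b at 748 ± 119 and 642 ± 26.4 CPM (log2 -0.25, SE 0.12). The last value was -0.125 without WT male 2, which was at 926 CPM against 674 to 699 in the other WT libraries. Scn7a in Vip had 13.8 and 19.7 CPM (log2 0.47, SE 0.23).

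The others were smaller or wider in spread. Cacna2d1 in L5 ET gave a log2 difference of 0.19 (SE 0.12), Cacna1i in Sst 0.30 (SE 0.18), Cacnb3 in L4/5 IT 0.23 (SE 0.13) and in deep IT 0.27 (SE 0.15), and Scn3b in Lamp5 -0.52 (SE 0.29). Cacna1i in committed OPC gave 0.61 (SE 0.38) and Cacnb4 in endothelial cells -0.42 (SE 0.30). These 7 values moved by over 1.5 times with 1 library left out. Without WT male 2, Scn3b in Lamp5 was at -0.17 and Cacna1i in Sst at 0.46, the latter at 0.17 without WT female 2. Without WT male 1, Cacnb4 in endothelial cells was at -0.06. Without Chd8het male 2, Cacnb3 was at 0.13 in L4/5 IT and 0.17 in deep IT. Cacna2d1 in L5 ET ran from 0.12 (without Chd8het male 1) to 0.29 (without WT female 1), and Cacna1i in committed OPC was at 0.39 without WT female 2 and 0.38 with predicted doublets kept. In the numbered clusters Scn4b in cluster 4 gave 0.79 (SE 0.34), Cacna2d3 in cluster 6 -0.27 (SE 0.12), Cacna1d in cluster 17 -0.16 and Scn9a in cluster 18 0.44 (edgeR quasi-likelihood, adjusted p = 1 for each). Scn9a in cluster 18 was at 0.26 without WT male 1 and 0.30 without Chd8het male 1. Scn4b in cluster 4 and Cacna2d3 in cluster 6 were the 2 tests of numbered clusters with an unadjusted p under 0.05, where the share over all genes was 2.04% in cluster 4 and 2.06% in cluster 6, and 2.15% in cluster 17.

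**Figure D4:**
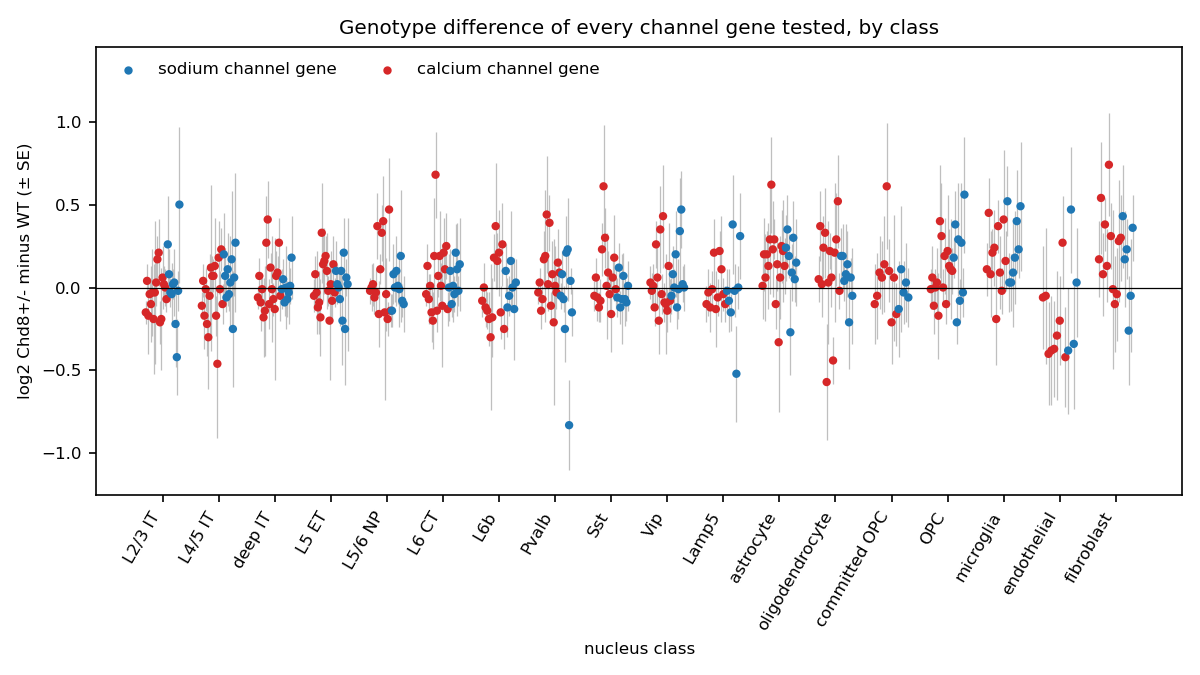
Log2 difference, Chd8het minus WT (y axis), of every channel gene tested in each of the 18 classes (x axis), as a point with a bar of 1 SE. The SE was computed back from the F statistic of the edgeR quasi-likelihood fit of 4 against 4 libraries. Points run from -0.83 (Scn7a in Pvalb) to 0.74 (Cacna1i in fibroblasts) around 0, and none was called after adjustment.

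Median log2 differences over the channel genes tested were -0.05 to 0.03 in the 11 neuron classes, 0.03 in committed OPC, 0.07 in oligodendrocytes, 0.10 in OPC, 0.17 in astrocytes, 0.18 in microglia, 0.20 in fibroblasts and -0.29 in endothelial cells, against -0.02 to 0.01 over all genes of the same classes. The summed excitatory markers moved too, from a mean of 251 CPM in WT to 310.1 in Chd8het in astrocytes, 444 to 528 in microglia, 358 to 392 in fibroblasts and 569 to 625 in endothelial cells, and their part in these medians was not tested. With 1 library left out, the medians ran from 0.05 (without Chd8het male 2) to 0.22 in astrocytes, from 0.08 (without WT male 1) to 0.25 in microglia and from 0.09 (without WT male 1) to 0.30 in fibroblasts. In endothelial cells the median turned to 0.21 without WT male 1, which had 38 of these nuclei and 1254 CPM of sodium alpha genes against 367 to 672 in the other WT libraries.

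The mix of genes within each family was compared too, as the share of each gene in its family's UMIs per library. Of 456 shares tested by exact permutation (two-sided, 70 splits of 4 against 4, smallest possible p 0.0286), 8 had p under 0.05. With 456 tests and that smallest p, 8 such tests cannot pass the adjustment, so the comparison of shares could not give a call and says nothing on whether the mix differed. The sex by genotype term gave a smallest adjusted p of 0.999 among the channel genes (edgeR quasi-likelihood). The genotype fit was also run on simulated counts with 200 genes changed 2-fold. These counts were drawn with the same dispersion for every gene and with no index type or replicate effect. The fit recovered 90.5% of the changed genes in L2/3 IT (of 16137 genes) and 74.0% in Lamp5 (of 8059 genes). Levels in the real libraries did move with index type, so these rates hold for the simulated counts only. For genotype, changes under 2-fold were not simulated. The log2 differences of channel genes in the tested classes ran from -0.83 (Scn7a in Pvalb) to 0.74 (Cacna1i in fibroblasts), each under 2-fold. These rates thus do not show how often differences of that size would be found.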

How the data were processed

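The deposited files held whole-number UMI counts per gene and barcode, made by the authors for 8 single-nucleus libraries with a 10x 3' v3 kit, per the labels. The submitters' processing notes name mm10, STAR 2.7.9a, STARsolo and Cell Ranger. Their roles, the annotation, the strandedness and whether introns counted are not given in the sources used here. Coordinates, spans and overlaps are from GENCODE M21 on GRCm38.

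Of 97772 barcodes, 82168 had at least 500 genes and at most 5% mitochondrial UMIs, and 4000 (4.87%) were removed as doublets by Scrublet in scanpy 1.11.5. Leiden clustering (leidenalg 0.10.2) used 3000 variable genes and 40 components, without channel genes, partner genes, mitochondrial or sex-linked genes, or Chd8. A name needed at least 3 fixed markers raised 2-fold. This naming rule was set after the clusters were seen, and 10577 nuclei stayed in neither a named class nor a numbered cluster.

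Counts were summed per library and class and tested with edgeR 4.0.16 (quasi-likelihood, minimum count 10, trimmed mean of M values, Benjamini-Hochberg). This test reports no SE. Each SE given was computed back as the absolute log2 difference divided by the square root of the F statistic. The class contrasts were fitted together over 18 classes, with library as a term. A contrast of several classes averages them on the log scale with equal weight. DESeq2 1.42.0 was an alternative. CPM values were computed here from the counts. Depth was 69.5 to 98.1 M UMIs per library, and counting limits the low genes most. The edgeR fits were tested on simulated data, drawn with the same dispersion for every gene. Alternatives covered scaling, filter, test, doublets, a stricter marker gate, model terms and each library left out.

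The labels do not tie libraries to litters. As a check of pairing, libraries alike in sex and replicate number deviated together from their genotype means in all nuclei (r 0.415 to 0.619). In 16 of 18 classes every such pair exceeded 0.1. Libraries of the other sex with the same number had r 0.303 to 0.413 in all nuclei. The means were taken over both sexes and index types, so sex or index type alone can give such values, and the check does not show which libraries are litter pairs. Replicate number equals index type, so litter and index type cannot be told apart here.

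Channel genes at 10 CPM or more in some class are named with values, except for 2 that enter the counts, medians and shares but are not reported here. For genotype, the gene with the smallest p per class is named, and for partner genes the 2 of largest change. For contrasts, the rule selected up to 6 called genes in each direction by size, and not all of those selected are given in the text. The genes, lists and rules were chosen with earlier results of these data known.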

Additional observations from a re-analysis of the deposited data

Results flagged for a closer look

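Within a genotype, 1 of the 4 libraries stood far from the other 3 in 7 of the 94 sets of 4 values examined (Dixon's 95% criterion), and chance flags about 1 in 20 such sets. The sets share libraries.

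Chd8het male 2, the library that gave most of cluster 24, was set apart for 2 of them. Cacna1e in Pvalb was at 117.1 CPM there and 67.2 to 72.7 in the other Chd8het libraries. Scn4b in cluster 4 was at 1.78 CPM there against 3.89 to 4.21. Chd8het female 2 was set apart for Cacna1d in microglia, 631.5 CPM against 488 to 508, and for Cacna2d4 in oligodendrocytes, 59.5 CPM against 44.6 to 47.0.

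Among WT libraries, Cacnb4 in L6b was at 926 CPM in male 2 and 674 to 699 in the other 3. Cacna2d1 in Pvalb was at 67.1 CPM in female 1 and 47.6 to 50.3 in the others. Scn9a in cluster 18 was at 25.7 CPM in male 1 and 102 to 111 in the others.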

How the results depend on the processing

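No named contrast result reversed, while the median genotype difference in endothelial cells went from -0.29 to 0.21 without WT male 1. The counts of called genes in the 11 contrasts and for genotype stayed within 1.5 times of their main value in each of the 15 alternatives of a contrast and the 16 for genotype. All contrasts together gave 106 calls, 99 to 110 under the other settings and 100 to 108 without 1 library. Of 75 contrast results selected by the naming rule, 10 lost their call in at least 1 setting. Scaling by library size alone moved the median of all genes by up to 0.26 (log2), no count filter by 0.14 and DESeq2 by 0.11. With the replicate block, 0 channel genes were called between genotypes, as in every alternative. The block changed no call of a channel gene, and its smallest adjusted p was 0.27. Without Chd8het female 2, 17 of 409 genotype tests (4.16%) had an unadjusted p under 0.05, against 9, and over all genes 7519 of 194663 did, against 4637 of 190236. The contrast of mural with endothelial cells was not run, because mural cells had 21 nuclei in the smallest library. Genes under 10 CPM are limited by depth.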

Other observations

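Nuclei named by the markers of striatal projection neurons were left out of the tests, because 2 of the 8 libraries had no such nuclei. In the other 6, with 338 nuclei in all and between 1 and 130 per library, Scn4b was at 59.8 ± 46.7 CPM (lowest 0, median 69.3, highest 119), against at most 12.7 CPM as the mean of a tested class. Scn3a was at 303 ± 92.3 CPM (234.9, 273.3 and 487) and Cacnb2 at 2017 ± 430 CPM (1236, 2195 and 2396), where the highest means of tested classes were 187 CPM in OPC and 986 CPM in Lamp5. The library with 1 nucleus, Chd8het male 1, gave the 0 for Scn4b and the 487 for Scn3a. These differences were not tested.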
